A study of Canis lupus familiaris with 22 samples.

Results

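Gene expression in the blood of 7 dogs with canine atopic dermatitis (cAD) was compared within each dog, before allergen-specific immunotherapy (ASIT) and after 6 months of it. The comparison used 14 of the 22 arrays of the series, 7 from the dogs before ASIT and 7 from the same dogs after ASIT, and the arrays were paired by the dog number in the sample labels. The other 8 arrays were those of healthy control dogs (ctrl) and served here for reference levels and in an alternative fit. Each array carried Cy5-labeled RNA of a dog beside Cy3-labeled RNA of a common reference, which was pooled from the blood of other healthy dogs. The cAD patients were privately owned dogs of several breeds and of both sexes, with no induced genotype, and allergen extracts chosen from skin tests were given to them subcutaneously in rising doses. No cAD patients without ASIT were sampled at both times, so time and therapy cannot be told apart.

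ASIT exposes the immune system to rising doses of the allergens to which a patient reacts. It is known for a shift from an allergic response, driven by type 2 helper T cells and IgE, toward tolerance, in which regulatory T cells, IL-10, TGF-beta and blocking IgG antibodies take part. Blood RNA is a mixture from neutrophils, lymphocytes, monocytes, platelets and young red cells. A marker gene in it can be lower because there were fewer cells of that type or because each cell held less of the RNA, and these cannot be told apart in such samples.

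Each array held 43603 different probes, and 20011 of them (45.9%) were well above background in both channels on all 14 arrays and were used. They gave 7975 genes with a symbol, each read from its brightest probe. A value is the log2 ratio of the dog to the reference, and a difference is that ratio after ASIT minus the ratio before ASIT, which is the opposite sense to a comparison written as 0 vs. 6 months. Of all probes, 53.3% to 87.5% had a Cy5 signal well above background on the arrays before ASIT and 57.1% to 81.6% on those after ASIT, and the number of dogs limits the precision of every value. The labels name the material whole blood and the methods name peripheral blood nuclear cells. Markers of neutrophils (CSF3R), T cells (CD3E), B cells (CD79A), monocytes (CD14), platelets (ITGA2B) and young red cells (ALAS2) were all above background on all 14 arrays.

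The slides did not hold the pairs alike. Both arrays of dogs 1 and 2 lay on slide 3 and both of dog 3 on slide 4, whereas the arrays of dog 4 lay on slides 4 and 6 and those of dogs 5, 6 and 7 on slides 5 and 6. Slide 6 had a scan day and a print layout file of its own. For dogs 4 to 7, time and slide thus cannot be told apart, and every mean over the 7 dogs below includes them. Means of dogs 1 to 3 are given beside some of the results. A single Y-linked gene could be measured, KDM5D, a histone demethylase. Its log2 ratio was 1.42 and 1.21 in dog 5 and 1.25 and 0.79 in dog 6 before and after ASIT, while in dogs 1 to 4 it lay between -1.70 and -0.02 at both times. In dog 7 it was -0.73 before and 0.54 after ASIT, so the pair of dog 7 stood apart from the others in this gene. The arrays were used as labelled, and whether both arrays of dog 7 came from 1 animal was not tested. Without dog 7, limma again called 0 probes, 140 probes were higher and 310 lower in all 6 other dogs, and the medians of the T cell, B cell and ribosomal protein lists described below were -0.25, -0.26 and -0.25.

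No transcript passed the test across all probes. With the dog as a block, limma called 0 of 20011 probes (0%) at an adjusted p under 0.05. The lowest adjusted p of any probe was 0.795. Without adjustment, p was under 0.05 for 1124 probes (5.62%), of which 255 (1.27% of all) were higher and 869 (4.34%) lower after ASIT. Over the probes, the median absolute mean difference was 0.14 on the log2 scale, and the median SD of the difference over the 7 dogs was 0.41. For most transcripts the mean difference was therefore smaller than the spread between dogs.

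The direction of the differences was counted over the 7 pairs. Of 19976 probes measured in all pairs, 111 (0.556%) were higher after ASIT in 7 of 7 dogs and 230 (1.15%) were lower in 7 of 7. At the level of genes these numbers were 38 (0.477%) and 91 (1.14%) of 7962. The excess of lower over higher depended on the scaling and on the filter. With no filter on dim probes 368 were higher and 339 lower in every dog. After each array was centred on its median, 169 probes were higher and 171 lower in all dogs, and in the Cy5 channel alone 89 were higher and 534 lower. Values of a channel alone, here and below, were taken after normexp background correction (offset 50), loess and normalization between arrays. They thus differ from the ratio in processing as well as in channel, and the parts of these were not separated.

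**Figure D1:**
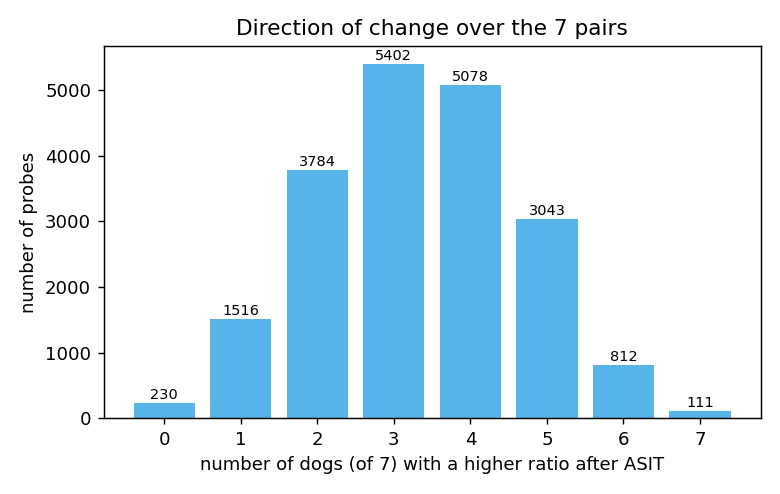
Bars give the number of probes (vertical axis) by the number of dogs, from 0 to 7, in which the log2 ratio was higher after ASIT (horizontal axis), over 19976 probes. Most probes were higher in 3 or 4 dogs, 230 in none and 111 in all 7.

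Among the lists of blood cell markers, T cell genes were the ones with the most members lower in every dog. Of 28 genes in the list, 22 were measured, and the mean difference was below 0 for 17 and above 0 for 5, where it was below 0 for 4168 and above 0 for 3798 of all 7975 genes. Their median was -0.26, beside -0.01 over all genes. In 3 of the 22 the ratio was lower in 7 of 7 dogs, where the share over all genes was 1.14%, and in 0 it was higher in 7 of 7 (0.477% of all genes). Before adjustment 7 of the 22 had a limma p under 0.05, against 5.14% of all genes, and none passed after adjustment.

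The 3 genes were CD2, CD6 and CD8B, and their probes are shown because they carry this pattern. CD2 is an adhesion receptor of T cells and NK cells, CD6 a T cell receptor for the adhesion protein ALCAM, and CD8B a chain of the co-receptor of cytotoxic T cells. On canFam3.1, the build of the files, CD2 was read at chr17:54180242-54180301, CD8B at chr17:38346262-38346321 and CD6 at chr18:55300574-55301893. The last span of 1320 bases is longer than the probe of 60 bases. No annotation of that build was used to place them in exons. The probe sequences are given 5′ to 3′ as deposited, all in lower case because no part of them is singled out.
CD2: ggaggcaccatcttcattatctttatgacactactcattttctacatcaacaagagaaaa
CD6: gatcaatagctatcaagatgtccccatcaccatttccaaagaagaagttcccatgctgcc
CD8B: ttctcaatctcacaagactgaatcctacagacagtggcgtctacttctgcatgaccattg

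The log2 ratio of CD2 in dogs 1 to 7 was -0.24, -0.61, 0.69, 0.18, -0.13, 0.40 and 0.20 before ASIT and -0.25, -0.87, -0.54, -0.37, -0.40, -0.20 and -0.27 after ASIT. The difference was -0.48 ± 0.39 (SD, n = 7), the most negative in dog 3 and close to 0 in dog 1. The levels before and after ASIT overlapped, and the ctrl dogs ranged from -0.59 to 0.40.
For CD6 the ratio was -0.21, -0.29, 0.69, 0.09, -0.44, 0.12 and 0.04 before ASIT and -0.32, -0.45, -0.15, -0.33, -0.50, -0.26 and -0.28 after ASIT. The difference was -0.33 ± 0.27 (SD, n = 7), and the dogs kept nearly the same order at both times.
CD8B differed by -0.51 ± 0.46 (SD, n = 7), from -1.17 in dog 6 to -0.01 in dog 1. Each of these genes had a limma adjusted p of 0.795. When the arrays were centred on their medians, CD2 and CD8B were lower in 6 of 7 dogs and CD6 in 7 of 7. The size depended on the scale. In the Cy5 channel alone the means were -0.42 for CD2, -0.20 for CD6 and -0.26 for CD8B, and with normexp background correction they were -0.36, -0.15 and -0.21. On these scales CD8B was lower in 6 of 7 dogs, CD2 in 6 in Cy5 and 7 with normexp, and CD6 in 7 in Cy5 and 6 with normexp. In dogs 1 to 3 the means of the log2 ratio were -0.50, -0.37 and -0.55.

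The other T cell genes were less uniform. CD3E, a signalling chain of the T cell receptor, differed by -0.43 ± 0.55 (SD, n = 7) and was lower in 5 of 7 dogs (2-sided exact sign-flip permutation test, unadjusted p = 0.109). CD3D, another chain of that complex, differed by -0.26 ± 0.59 (exact p = 0.25), and CD8A, the partner chain of CD8B, by -0.30 ± 0.63 (exact p = 0.312). LCK, the kinase that starts T cell receptor signalling, was lower in 6 of 7 dogs with a mean of -0.22 ± 0.45 (exact p = 0.266). CD4, the co-receptor of helper T cells, went the other way in the mean, 0.23 ± 0.87 (exact p = 0.516), with differences from -0.68 in dog 3 to 1.59 in dog 4. LEF1, a transcription factor of naive T cells, was lower in 6 of 7 dogs with a mean of -0.46 ± 0.38 (exact p = 0.0312). Several of these means differed between the sets of pairs. In dogs 1 to 3 CD3D stood at 0.20, LCK at 0.02, CD4 at -0.34 and LEF1 at -0.10, and in dogs 4 to 7 at -0.60, -0.40, 0.66 and -0.73, so that CD3D, LCK and CD4 turned in direction. For CD3E the means were -0.67 and -0.24 and for CD8A -0.35 and -0.27. The p-values of these T cell genes are not adjusted for the number of genes, and the smallest that 7 pairs can give is 0.0156. Within dogs, the median over the T cell list was 0.02, 0.13 and -0.56 in dogs 1, 2 and 3 and -0.50, -0.06, -0.39 and -0.18 in dogs 4 to 7. Among the pairs on 1 slide, the list was thus lower in dog 3 alone. Without dog 3 the median of the list over the dogs was -0.16.

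B cell markers showed a median of -0.29 over 9 measured genes of 19, with 7 below 0, and 0 had the same direction in all dogs (0.477% of all genes were higher and 1.14% lower in all). MS4A1, which encodes the B cell surface protein CD20, was lower in 6 of 7 dogs with a mean of -0.68 ± 0.46 (SD, n = 7, exact p = 0.0312), and dog 2 was the exception with 0.19. CD79A, a signalling chain of the B cell receptor, differed by -0.23 ± 0.26 (exact p = 0.0312) and was higher in dog 6 alone. In the Cy5 channel alone CD79A differed by -0.04, lower in 4 of 7 dogs, and with normexp by -0.08, lower in 5 of 7. MS4A1 stood at -0.67 on both of these scales. The median over the list was below 0 in 6 of 7 dogs, dog 2 again being the exception. The B cell median was -0.10 in dogs 1 to 3, -0.34 in dogs 4 to 7 and -0.19 in the Cy5 channel alone. The plasma cell list went the other way, with a median of 0.14 over 7 genes, above 0 in 6 of 7 dogs. In Cy5 alone the plasma cell median was 0.02. The markers of cytotoxic and NK cells had a median of -0.15 over 13 genes, and their medians ran from -0.80 in dog 3 to 0.22 in dog 2. Without dog 3 the median of this list was -0.04, and Cy5 alone gave -0.06. The medians of the T cell, B cell and cytotoxic and NK cell lists thus lay between -0.10 and 0.22 in dogs 1 and 2, whose arrays shared slide 3, and between -0.80 and -0.42 in dogs 3 and 4.

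Of 15 measured monocyte genes 14 had a mean above 0, against 3798 of all 7975, and the median was 0.14. It was 0.02 without dog 4 and 0.01 in the Cy5 channel alone, and within dogs the median of the list was below 0 in 3 of 7. CSF1R, the receptor for the growth factor of monocytes and macrophages, was higher in 7 of 7 dogs (0.477% of all genes). Its log2 ratio was -0.15, -0.54, 0.12, -0.26, -0.06, -0.20 and -0.49 in dogs 1 to 7 before ASIT and 0.02, -0.24, 0.25, 0.06, 0.21, -0.18 and -0.14 after ASIT. The difference was 0.22 ± 0.12 (SD, n = 7), the smallest being 0.02 in dog 6, and the adjusted p in limma was 0.795. One of its 2 other probes had a mean difference of -0.23, and in the Cy5 channel alone the brightest probe differed by 0.01 and was higher in 4 of 7 dogs. The direction of CSF1R thus depended on the probe.

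**Figure D2:**
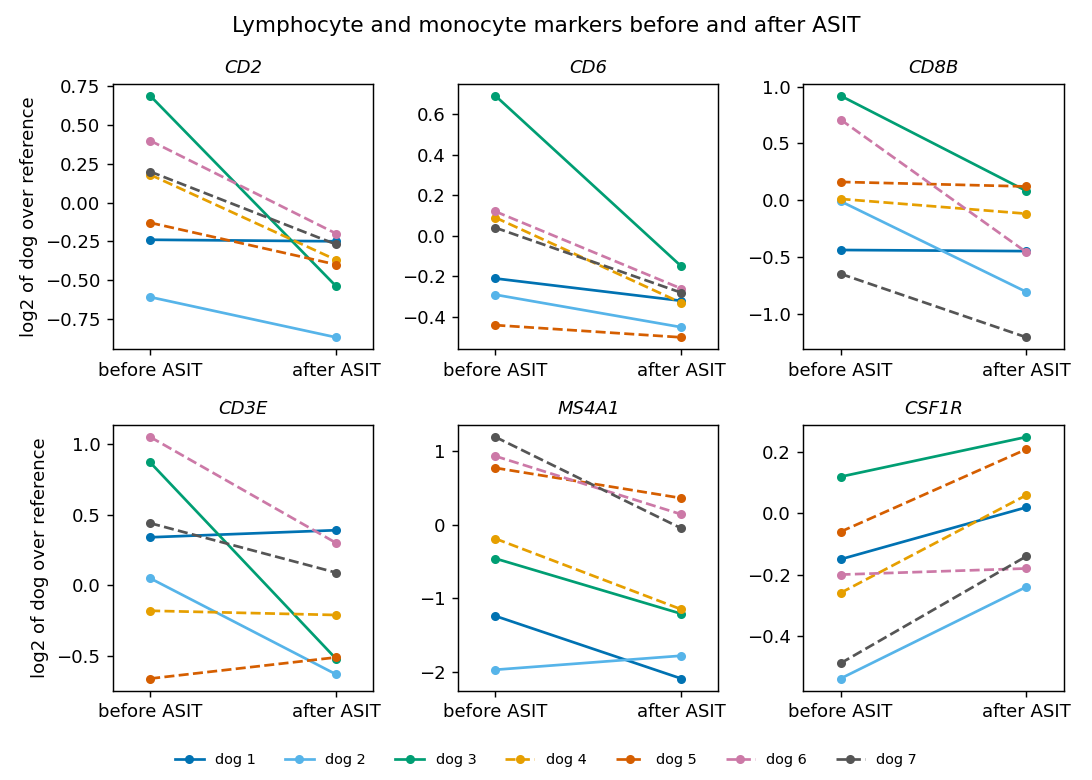
Each panel shows a marker, with the log2 ratio of dog to reference (vertical axis) before and after ASIT and a line for each of the 7 dogs, solid for dogs 1 to 3 (both arrays on 1 slide) and dashed for dogs 4 to 7. CD2, CD6 and CD8B were lower and CSF1R higher after ASIT in every dog, while CD3E was higher in dogs 1 and 5 and MS4A1 in dog 2. The vertical scales differ between the panels.

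Larger differences were seen in single dogs, and they ran in opposite directions. In dog 4 the median of the monocyte list was 0.94 and that of the neutrophil list 0.90, with CSF3R, the receptor for the neutrophil growth factor, at 1.07. In the same dog the B cell list stood at -0.73, the erythroid list at -0.67 and the cell cycle list at -0.95. In the Cy5 channel alone these medians of dog 4 were 0.43 for monocyte, 0.80 for neutrophil, -0.42 for B cell, -0.61 for erythroid and -0.59 for cell cycle genes. Dogs 5 and 6 had the reverse for red cells, with erythroid medians of 1.33 and 1.16, or 0.99 and 0.65 in the Cy5 channel alone. Their platelet medians were 0.84 and 1.02, or 0.47 and 0.52 in Cy5 alone, and that of dog 4 was 0.27. ALAS2, the first enzyme of haem synthesis in red cells, was higher by 2.25 and 1.12 in dogs 5 and 6 and lower by 0.98 in dog 3. ITGA2B, the platelet fibrinogen receptor chain, was higher by 0.93 and 0.69 in dogs 5 and 6. The cell cycle list, with TOP2A as an example at 0.64 and 0.62, had medians of 0.61 and 1.06 in these dogs, or 0.15 and 0.27 in Cy5 alone. Both dogs had their arrays before ASIT on slide 5 and after ASIT on slide 6, and so did dog 7, whose erythroid median was -0.15 and whose cell cycle median was -0.04. In dog 3, with both arrays on slide 4, the erythroid median was -0.84 and the platelet median -0.52.

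Over all dogs, the median of the erythroid list was 0.19, with 0 of 16 genes alike in direction in 7 of 7 dogs, and that of the platelet list was 0.30, with 0 of 16. The cell cycle list had a median of 0.17 and 0 of 24 such genes. Over all genes 0.477% were higher and 1.14% lower in 7 of 7 dogs, so few or none are due in lists of this size. Single dogs decided the medians of 2 of these lists. The erythroid median was -0.04 without dog 5 and 0.02 without dog 6, and the cell cycle median was -0.01 without dog 6 and 0.36 without dog 4. In the Cy5 channel alone the medians were 0.07 for the erythroid, 0.06 for the platelet and -0.02 for the cell cycle list. In dogs 1 to 3 the platelet median was -0.19 and in dogs 4 to 7 it was 0.69, so the direction of the platelet list was not shared by the 2 sets of pairs.

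**Figure D3:**
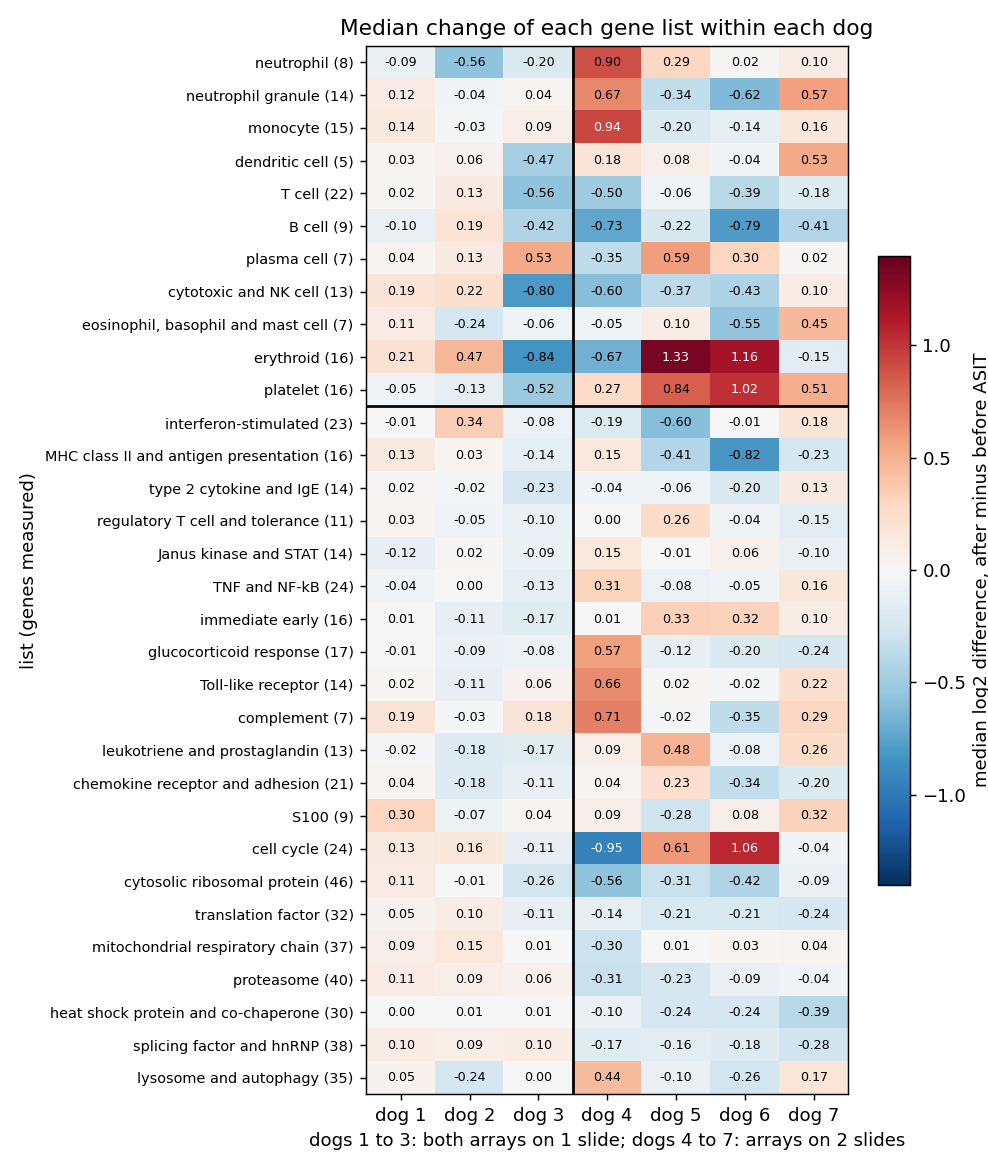
Rows are 32 gene lists, 11 of cell markers above the line and 21 of functions below it, with the number of genes measured in brackets, and columns are the 7 dogs. Colour and numbers give the median log2 difference, after minus before ASIT. Dog 4 stands out for its monocyte (0.94) and neutrophil (0.90) lists and dogs 5 and 6 for the erythroid list (1.33 and 1.16), while the lists of allergy and tolerance are near 0.

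The lists closest to the purpose of ASIT showed small medians. For type 2 cytokine and IgE genes the median difference was 0.05 over 14 genes, and the medians in the dogs ran from -0.23 to 0.13. For regulatory T cell and tolerance genes it was -0.06 over 11 genes, with -0.15 to 0.26 in the dogs, and for Janus kinase and STAT genes -0.01 over 14. In these 3 lists 0 genes had the same direction in 7 of 7 dogs. Over all genes 0.477% were higher and 1.14% lower in 7 of 7, shares at which lists of this size hold few or none. CTLA4, an inhibitory receptor of T cells, differed by -0.11 ± 0.51 (SD, n = 7, exact p = 0.578), and TGFB1, a cytokine of tolerance, by 0.21 ± 0.40 (exact p = 0.25). BTLA, an inhibitory receptor of lymphocytes, had the most negative mean of the tolerance list, -0.83 ± 0.89, lower in 6 of 7 dogs (exact p = 0.0625). Its mean was -0.28 in dogs 1 to 3 and -1.25 in dogs 4 to 7, and it was -0.22 in the Cy5 channel alone and -0.18 with normexp. CTLA4 and TGFB1 turned in direction between the sets of pairs, with 0.31 and -0.06 in dogs 1 to 3 and -0.43 and 0.41 in dogs 4 to 7. FOXP3 and IL10 were not above background on all arrays and gave no value. FCER1A, the allergen-binding part of the IgE receptor, differed by 0.36 ± 1.73 and went from -0.52 to 3.12 in dog 3, while in dogs 5 and 6 it was lower by 1.06 and 1.60.

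Of the MHC class II and antigen presentation genes, which present peptides to helper T cells, 15 of 16 had a mean below 0, against 4168 of all 7975 genes, with a median of -0.18 and 0 alike in all dogs (0.477% of all genes were higher and 1.14% lower in all). Their median was near 0 in dogs 1 to 3 (0.13, 0.03 and -0.14), and in dogs 4 to 7 it was 0.15, -0.41, -0.82 and -0.23. Over the dogs the median was -0.08 without dog 6 and -0.35 in the Cy5 channel alone. Interferon-stimulated genes had a median of -0.03 over 23 genes. PARP9, which takes part in interferon signalling, was the single member lower in 7 of 7 dogs (1.14% of all genes were), with a difference of -0.52 ± 0.36 (SD, n = 7) and values from -1.01 in dog 2 to -0.08 in dog 1. Of 13 leukotriene and prostaglandin genes, which include receptors, PTGES3 was the single one lower in 7 of 7 dogs, again beside 1.14% of all genes. PTGES3, a co-chaperone that also acts as a prostaglandin E synthase, differed by -0.01 in dog 2 to -0.54 in dog 7.

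Cytosolic ribosomal proteins, the protein parts of the ribosome, had a mean below 0 for 43 of 46 measured genes, against 4168 of all 7975, and a median of -0.22. RPS23, RPL7A and RPL21 were lower in 7 of 7 dogs (1.14% of all genes), and 11 of the 46 had an unadjusted limma p under 0.05 (5.14% of all genes), with 0 after adjustment. After centring each of the 3 was lower in 6 of 7 dogs, and RPL7A was lower in 4 of 7 in the Cy5 channel alone. The difference was -0.47 ± 0.33 (SD, n = 7) for RPS23, -0.29 ± 0.31 for RPL7A and -0.22 ± 0.13 for RPL21. Many ribosomal protein genes have near-identical copies in the genome, so their probes are uncertain. In dogs 1, 2 and 3 the list medians were 0.11, -0.01 and -0.26, and in dogs 4 to 7 they were -0.56, -0.31, -0.42 and -0.09. RPL7A differed by -0.03 in the mean of dogs 1 to 3 and by -0.48 in that of dogs 4 to 7, RPS23 by -0.19 and -0.67, while RPL21 differed by -0.25 and -0.20. The test of pairs on 1 slide against pairs on 2 gave an adjusted limma p of 0.524 for RPL7A and 0.929 for RPL21.

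In 6 lists the medians of the pairs on 1 slide and on 2 slides did not overlap, while the test across probes, given further on, called 0 probes as different between these sets. The medians of splicing factors and hnRNPs were 0.10, 0.09 and 0.10 in dogs 1 to 3 and -0.17, -0.16, -0.18 and -0.28 in dogs 4 to 7. For heat shock proteins and co-chaperones they were 0.00, 0.01 and 0.01 against -0.10, -0.24, -0.24 and -0.39. Proteasome genes had medians of 0.11, 0.09 and 0.06 against -0.31, -0.23, -0.09 and -0.04, and translation factors 0.05, 0.10 and -0.11 against -0.14, -0.21, -0.21 and -0.24. The other two were lists of cell markers. The neutrophil medians were -0.09, -0.56 and -0.20 in dogs 1 to 3 against 0.90, 0.29, 0.02 and 0.10 in dogs 4 to 7, and the platelet medians were -0.05, -0.13 and -0.52 against 0.27, 0.84, 1.02 and 0.51. Time, slide and scan cannot be told apart in dogs 4 to 7. Some members of the lists of function were alike in every dog, as were 0.477% (higher) and 1.14% (lower) of all genes. HNRNPU, an RNA-binding protein of the nucleus, was higher in 7 of 7 dogs (0.16 ± 0.13), TRA2A, a splicing regulator, was lower in 7 of 7 (-0.23 ± 0.22), and NDUFB9, a subunit of respiratory complex I, was higher in 7 of 7 (0.19 ± 0.12; SD, n = 7 for each). One of the 2 other probes of HNRNPU had a mean of -0.02, and in the Cy5 channel alone HNRNPU differed by 0.02 and was higher in 4 of 7 dogs.

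The genes with the largest mean differences among those alike in all dogs were chosen by their agreement, and their values are a description. The 10 lower after ASIT were CETN3, SMC5, MRPL1, GABRG3, C6H16orf52, SCAMP1, PARP9, SESN1, PYROXD1 and CD8B, with means from -0.98 to -0.51. CETN3, a centrin of the centrosome, differed by -0.98 ± 0.73 (SD, n = 7), from -1.83 in dog 7 to -0.04 in dog 1. MRPL1, a protein of the mitochondrial ribosome, differed by -0.81 ± 0.54 and SESN1, a stress protein that restrains mTOR signalling, by -0.51 ± 0.44. SCAMP1, a membrane protein of secretory vesicles, was the most even of them with -0.53 ± 0.22 and values from -0.75 to -0.18. In dogs 1 to 3 the means were -0.60 for CETN3, -0.84 for MRPL1, -0.27 for SESN1 and -0.45 for SCAMP1, against -1.27, -0.78, -0.70 and -0.60 in dogs 4 to 7.

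SMC5 and SMC6 form a complex that takes part in DNA repair and keeps chromosomes stable, and the log2 ratio of both was lower in every dog. SMC6 was not chosen by the size of its mean but after its values were seen. The probes are shown because each partner was read on its own chromosome, SMC5 at chr1:87264715-87264774 and SMC6 at chr17:13153386-13154510, a span of 1125 bases.
SMC5: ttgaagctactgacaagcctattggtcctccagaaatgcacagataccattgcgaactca
SMC6: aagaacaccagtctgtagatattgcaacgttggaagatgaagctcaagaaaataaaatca
The log2 ratio of SMC5 was -0.25, 1.42, 0.61, 0.49, 0.56, 0.97 and 1.72 in dogs 1 to 7 before ASIT and -0.71, -0.17, -0.14, 0.49, 0.14, -0.03 and -0.27 after ASIT, a difference of -0.89 ± 0.70 (SD, n = 7). In dog 4 the levels were equal to 2 decimals. The second probe of SMC5 had a mean of -0.15. For SMC6 the difference was -0.42 ± 0.45, from -1.38 in dog 7 to -0.05 in dog 2, and its 2 other probes had means of -0.49 and -0.42. SMC6 was lower in 6 of 7 dogs after centring. Its mean was -0.15 in dogs 1 to 3 and -0.61 in dogs 4 to 7, and it was -0.26 without dog 7, while that of SMC5 was -0.94 and -0.85 in the 2 sets.

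The 10 with the most positive means were EXD1, KCNRG, ECE1, IGF2R, A2M, TLE3, PISD, STAC3, HEXIM1 and TRIM26, with means from 0.68 to 0.37. IGF2R, the receptor that carries enzymes to the lysosome, had the ratios -0.53, -0.98, -0.19, -0.14, -0.22, -0.54 and -0.74 in dogs 1 to 7 before ASIT and -0.52, -0.48, 0.25, 0.45, 0.03, -0.07 and -0.08 after ASIT. Its difference was 0.42 ± 0.22 (SD, n = 7), and all 3 of its probes had means above 0. TLE3, a transcriptional co-repressor, differed by 0.41 ± 0.22, HEXIM1, an inhibitor of transcription elongation, by 0.39 ± 0.30, and A2M, a protease inhibitor of plasma, by 0.41 ± 0.29. The size of these values depended on the background correction. With normexp correction and an offset of 50 the 10 means above lay between 0.07 and 0.34, and those of the 10 lower genes between -0.47 and -0.17. Of the 28 genes named by their agreement, 22 kept it in 7 of 7 dogs after centring, 13 with normexp and 9 in the Cy5 channel alone. Of these 28, 5 kept it under all 3, namely SMC5, MRPL1, SCAMP1, PARP9 and TRA2A, and these were lower. Genes outside the 28 were not counted in this way. NOTCH1, a receptor of cell fate signalling that was looked at after its values were seen, was higher in 7 of 7 dogs in the ratio (mean 0.25), after centring, with normexp (0.13) and in Cy5 alone (0.18).

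Of the 9 genes that the study singled out, 4 were above background in both channels on all 14 arrays. The other 5, DPP10, PLSCR4, NTSR1, DEFB122 and IL36G, did not pass this filter, and the values of the 4 say nothing about them. RARRES2, the precursor of the attractant chemerin, differed by 0.38 ± 0.65 (SD, n = 7) and was higher in 5 of 7 dogs (exact p = 0.172). SLPI, an inhibitor of neutrophil elastase, differed by 0.01 ± 0.39 (exact p = 0.938), with a mean of 0.34 at its other probe, and CBD103, a beta-defensin, by -0.01 ± 0.62 (exact p = 0.984), with a mean of 0.68 at its other probe. MMP9, a metalloproteinase of neutrophil granules, differed by 0.87 ± 2.07 (exact p = 0.453). Its ratio was -0.03, 1.75, 0.60, 1.22, 0.52, 4.20 and -0.90 before ASIT and 0.06, 1.90, 4.62, 0.35, 0.27, 3.47 and 2.78 after ASIT. It was higher by 4.01 in dog 3 and by 3.67 in dog 7, and differed by less than 1 in the others. Without dog 7 its mean difference was 0.40.

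The size of the differences varied between dogs. The SD of the differences over all kept probes was 0.21, 0.47 and 0.44 in dogs 1, 2 and 3 and 0.56, 0.59, 0.66 and 0.53 in dogs 4 to 7. Differences of more than 1 were found for 12 probes (0.06%) in dog 1 and for 2464 (12.3%) in dog 6. The common reference gives the spread without any dog. The SD of its Cy3 differences was 0.09 to 0.15 in dogs 1 to 3 and 0.27 to 0.47 in dogs 4 to 7. Over all 7 pairs limma called 0 of 20011 probes (0%) in Cy3, with 3446 at p under 0.05 before adjustment, and in dogs 1 to 3 it called 0 (0%), with 1207 before adjustment. In dogs 4 to 7 it called 6551 (32.7%), although the reference was the same RNA on each array. The 2 sets of pairs were then compared with each other on the log2 ratio. The test of the difference called 0 of 20011 probes (0%), with 2035 (10.2%) at p under 0.05 before adjustment, and the smallest adjusted p was 0.459. In the Cy5 channel alone, taken after the same normalizations, it called 469.

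**Figure D4:**
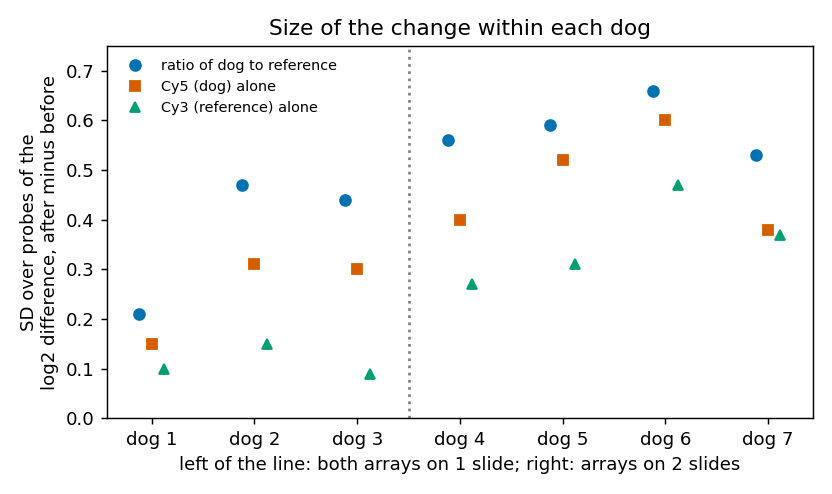
Points give for each dog (horizontal axis) the SD over 20011 probes of the log2 difference, after minus before ASIT (vertical axis), for the ratio, the Cy5 channel alone and the Cy3 channel alone. The Cy3 reference lies at 0.09 to 0.15 in dogs 1 to 3 and at 0.27 to 0.47 in dogs 4 to 7, right of the dotted line.

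The profiles of change were compared between dogs, as a description across probes, which share arrays and are not independent. Dogs 5 and 6, whose arrays shared both slides, had r = 0.77. Dog 7, on the same 2 slides, had r = 0.19 with dog 5 and 0.32 with dog 6. Dog 4 and dog 6 had r = -0.40, as had dog 3 and dog 5. Among dogs 1 to 3 it was -0.06 to 0.13.

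Some transcripts differed far more between dogs than between the 2 times. Among named genes with an SD over 1.2 between dogs before ASIT, the 5 probes with the closest relation of the levels before and after were those of DAGLB (r = 0.99 over 7 dogs), PLEKHA2 (0.99), MAGI2 (0.98), DLA-79 (0.97) and ADGRE2 (0.96). They were chosen for this after their values were seen, and DLA-79, an MHC class I gene, is not described or plotted. DAGLB, a lipase that makes an endocannabinoid, had ratios of -1.59, 0.60, 1.29, 1.32, -1.66, -1.66 and -2.67 before ASIT and -1.54, 0.77, 1.75, 1.87, -1.71, -2.19 and -2.45 after ASIT. Dogs 2, 3 and 4 thus lay above 0 and the other dogs below -1.5 at both times. PLEKHA2, an adaptor protein that binds membrane lipids, was at -1.81 and -1.86 in dogs 1 and 2 before ASIT and at -2.10 and -2.32 after ASIT, and between -0.19 and 1.01 in the other dogs at both times. MAGI2, a scaffold protein, was below -2.4 in dogs 4 and 5 alone, and ADGRE2, an adhesion receptor of myeloid cells, below -2.6 in dogs 1 and 2 alone. Slide 3 held the arrays of dogs 1 and 2 and of no other dog, and had a scan day of its own. For PLEKHA2 and ADGRE2, dog and slide thus cannot be told apart. The ctrl dogs spanned similar ranges, from -1.76 to 1.44 for DAGLB and from -3.50 to 1.79 for ADGRE2. Over all probes the correlation of the levels before and after ASIT across the 7 dogs had a median of 0.44, and it was over 0.9 for 2.61% of probes and below 0 for 17.1%.

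**Figure D5:**
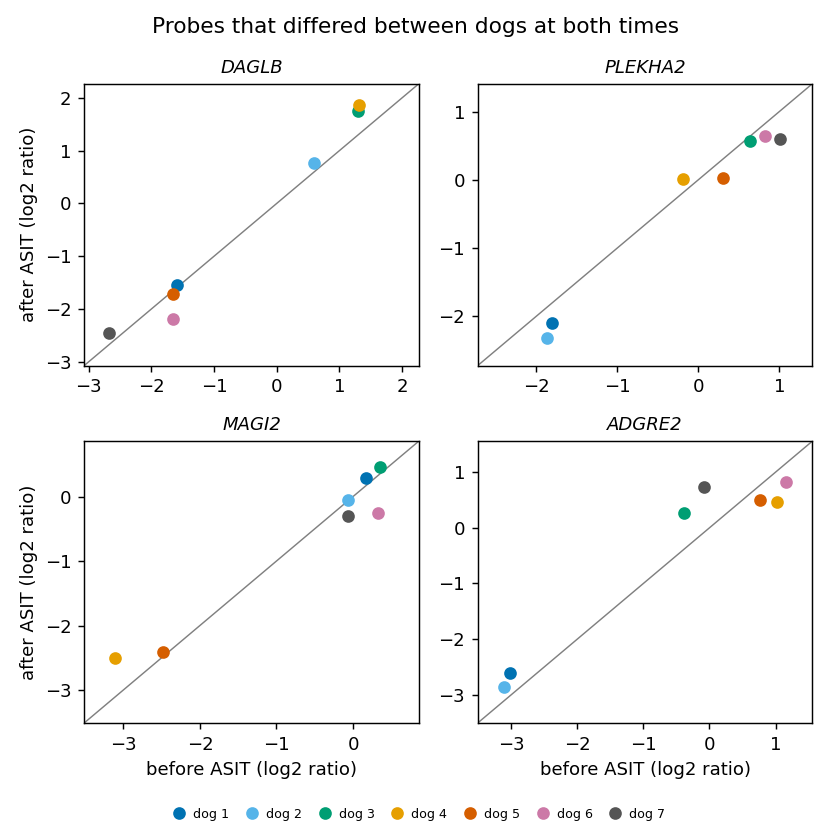
Each panel plots the log2 ratio of a probe before ASIT (horizontal axis) against that after ASIT (vertical axis), with a point for each of the 7 dogs and a line where both are equal. The dogs fall into separate levels that lie near the line, such as dogs 1 and 2 at the lower left for PLEKHA2 and ADGRE2. Dogs 1 and 2 also shared a slide that held no other dog.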

How the data were processed

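Blood RNA of the 7 cAD patients was hybridized before and after ASIT to Agilent two-color arrays with the same Cy3 reference. The authors scanned the arrays and used Feature Extraction (version 10.7.3.1 per the labels, 10.10.1.1 in the file headers) to subtract the background and to apply Lowess normalization. The deposited scanner files give raw and processed intensity for each spot and the log10 ratio of Cy5 to Cy3, and the authors also deposited a series matrix with the same log10 values for these 14 arrays. The files place the probes on canFam3.1.

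Ratios were put on the log2 scale. Outlier-flagged and control spots were dropped, which left 35 kept probes without a value on 1 array, and the spots of each probe were averaged. Probes were kept if both channels were well above background on all 14 arrays. Symbols were taken from the files and updated through a RefSeq gene table (assembly UU_Cfam_GSD_1.0), and 7611 kept probes had none. Differences were tested in R 4.3.3 by limma 3.58.1, with the dog as a block, moderated variances and Benjamini-Hochberg adjustment over all kept probes. The scripts were tested on simulated data. The other work was done in Python 3.11.15.

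The pairing comes from the source and health condition fields of the labels, which number the dog at both times. The titles of all arrays after ASIT name patient 1 and end in the numbers 1 to 7. The deviations of same-numbered arrays from their group means correlated by 0.53, 0.65, 0.17, 0.47, 0.55, -0.21 and 0.52 in dogs 1 to 7. By this measure the array after ASIT closest to that before ASIT was the dog's own in dogs 1, 2 and 4 and that of another dog in the other 4. Single genes not chosen for agreement were compared by exact sign-flip permutation tests. The lists got no test of their own. Named genes were the 10 most positive and 10 most negative mean differences among genes alike in 7 of 7 dogs, up to 2 such genes each way from each list, and the genes singled out by the study. Genes named beyond this rule (CD6, RPL21, SMC6, NOTCH1, KDM5D, the 4 that differed between dogs and examples from the lists) were chosen after their values were seen. The members, lists and tests were chosen with earlier results of these data known. One alternative, the reference channel of dogs 4 to 7, was added after seeing the data.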

Additional observations from a re-analysis of the deposited data

Results flagged for a closer look

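The difference of each named gene and of each list was searched for a dog far from the other 6, by Dixon's ratio of the gap to the range. Of 90 sets of differences 8 were flagged, and chance flags about 1 in 20. FKBP5, a co-chaperone of the glucocorticoid receptor that glucocorticoids induce, was lower by 4.00 in dog 2 (difference -4.00), where its log2 ratio went from 2.42 to -1.58, while the other dogs differed by -0.27 to 0.94. In the Cy5 channel alone the difference in dog 2 was -1.99, with the Cy3 reference at -0.53. In the same dog the list of glucocorticoid response genes had a median of -0.09. KCNRG, a regulator of potassium channels, was higher by 1.63 in dog 3, and both arrays of dogs 2 and 3 lay on 1 slide. KDM5D was higher by 1.27 in dog 7, and SMC6 differed there by -1.38. Dog 4 was flagged for 4 lists. Their medians were 0.94 for monocyte genes, 0.57 for glucocorticoid response genes, 0.66 for Toll-like receptor genes and -0.30 for the mitochondrial respiratory chain, and in Cy5 alone 0.43, 0.60, 0.39 and -0.40. The arrays of dog 4 lay on slides 4 and 6, and the part of the slide in these values was not tested.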

How the results depend on the processing

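The count of 0 called probes for after against before ASIT was the same under all alternatives run, at adjusted p of 0.0931 (normexp) or more. Before adjustment, 1124 probes had p under 0.05, against 328 with no replicate block (the pairing by dog left out), 412 with the ctrl arrays added and no block, 2244 in dogs 4 to 7, 3366 in the Cy5 channel alone and 2892 with no filter. Leaving out 1 dog gave 568 (without dog 7) to 1855 (without dog 4). Probes higher in every dog numbered 169 after centring, 368 with no filter, 2197 in dogs 1 to 3 and 1387 in dogs 4 to 7, and 140 to 280 without 1 dog. Those lower in every dog numbered 534 in Cy5 alone, 339 with no filter, 3118 in dogs 1 to 3 and 2699 in dogs 4 to 7, and 267 to 640 without 1 dog. Fewer dogs make agreement easier by construction. The test of pairs on 1 slide against 2 called 469 in Cy5 alone, and the reference channel of dogs 4 to 7 gave 6551. The cause was not tested.

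Of 627 list medians recomputed, 619 moved by less than the SD between dogs. The other 8 were the eosinophil, basophil and mast cell list (-0.21), leukotriene and prostaglandin genes (-0.18) and splicing factors (0.09), each in dogs 1 to 3 alone and with slide and replicate as blocks, and translation factors (-0.28) and the respiratory chain (-0.14) in Cy5 alone. The ribosomal protein median was -0.22, and -0.43 in Cy5 alone and with normexp. Some alternatives could not move a value, since the series matrix held the same ratios and no kept probe was saturated. A change of sign could also stay within the SD between dogs. The platelet median was 0.30 over all dogs and -0.19 in dogs 1 to 3, with an SD of 0.55. Of 1140 recomputed mean differences of single genes, 44 changed sign. In dogs 1 to 3 alone, and with slide and replicate as blocks, CD3D was 0.20, CD4 -0.34, LCK 0.02, CSF3R -0.30, ALAS2 -0.12, ITGA2B -0.21, TGFB1 -0.06 and CTLA4 0.31. In dogs 4 to 7 alone CBD103 was 0.27, MAGI2 -0.04, ADGRE2 -0.08, FCER1A -0.55 and FKBP5 0.18. With normexp CBD103 was 0.04, ALAS2 -0.03 and ADGRE2 -0.03, in Cy5 alone ALAS2 was -0.15, ADGRE2 -0.25 and TOP2A 0.00, and after centring CBD103 was 0.01. Without 1 dog the ranges that crossed 0 were -0.05 to 0.14 for SLPI, -0.13 to 0.13 for CBD103, -0.70 to 0.13 for FKBP5, -0.09 to 0.11 for MAGI2, -0.25 to 0.00 for CTLA4, -0.04 to 0.50 for ALAS2, -0.32 to 0.03 for KDM5D, -0.19 to 0.68 for FCER1A and -0.09 to 0.18 for CSF3R. The number of dogs and the dim probes left out limit what could be detected.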

Other observations

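The gene with the greatest difference of the log2 ratio in a single dog was a different one in each of the 7 dogs. It was IL7, a growth factor of lymphocytes, with -1.26 in dog 1, FKBP5 with -4.00 in dog 2, MMP9 with 4.01 in dog 3, OLIG1, a transcription factor, with -6.50 in dog 4, SLC25A39, a mitochondrial carrier, with 3.31 in dog 5 and ACTA2, smooth muscle actin, with 4.79 in dog 6. In dog 7 MGST3, a microsomal glutathione transferase, differed by -7.35 and CEP57, a centrosomal protein, by -6.81, while the other dogs lay between -0.80 and 0.20 and between -0.73 and 0.07. In the Cy5 channel alone, which also had another background correction, most of these were smaller. They were -0.27 for IL7, -1.99 for FKBP5, 4.33 for MMP9, -4.11 for OLIG1, 2.45 for SLC25A39, 2.01 for ACTA2, -4.55 for MGST3 and -3.00 for CEP57. Other genes exceeded some of them, such as FOS with 1.07 in dog 1 and CEP170 with -2.85 in dog 2. How much of this came from the background correction was not tested. SLC25A39 belongs to the erythroid list, and its difference was 0.43 ± 1.53 (SD, n = 7) over the dogs. SYTL4, which takes part in granule release, was among the 3 most positive differences of dogs 2 and 7 and the 3 most negative of dog 4, with 2.19 in dog 2, 2.45 in dog 7 and -2.98 in dog 4. In Cy5 alone these were 0.07, 1.03 and -2.11.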
